A study of Mus musculus with 6 samples.

Results

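The heat shock proteins, the DnaJ (J) proteins and the CCT/TRiC chaperonin were described in mouse motor neurons (MNs) that express or lack mouse Smn1. Members were chosen by family name (Hspa, Hsp90, Hspb, Hsph1, Hspd1, Hspe1, Dnaja, Dnajb, Dnajc, Cct and Tcp1 symbols), and 82 of the 34433 gene symbols in the table met this rule. These proteins fold other proteins. HSP70 proteins bind short stretches of unfolded chains and release them in an ATP cycle that J proteins start and that exchange factors such as HSP110 reset, HSP90 completes the folding of kinases and receptors, and the CCT/TRiC and HSP60 chaperonins enclose a chain in a chamber. Separate sets of these proteins work in the cytosol, the endoplasmic reticulum (ER) and the mitochondrion, and small heat shock proteins hold unfolded chains without ATP. MNs are known for a high threshold of the heat shock response and for diseases in which chaperones such as DNAJB2, HSPB1, HSPB3 and HSPB8 are mutated.

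The cells were derived from mouse embryonic stem cells (mESCs), of the Hb9 line for control MNs and of the A2 line for SMA MNs. Both lines are on the FVB/N background, carry human SMN2 (SMN2+/+) and an eGFP reporter under the Hb9 promoter, and A2 in addition lacks mouse Smn (mSmn-/-), which the control line has in its wildtype form. Embryoid bodies of both lines were given 1 µM retinoic acid and 1 µM Smoothened agonist for 5 days, and GFP-positive cells were sorted, with 3 samples sequenced per genotype. The table gives 1 transcript level per genotype, as FPKM, a level scaled to the length of the transcript and to the reads of the library. The 3 samples are combined in each level, so that no replicate check, SD or test could be made here for the differences below. The authors' own tests of these differences were not used. Where a pair of levels is given for a gene, the first is that of Hb9 control MNs and the second that of A2 SMA MNs. Each genotype is 1 line, so genotype and line cannot be told apart, and in sorted bulk cells fewer cells of a type and less RNA per cell cannot be told apart either.

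Smn1, the gene deleted in the A2 line, had a level of 137 FPKM in control and 5.26 in A2 SMA MNs, which is 25.9-fold lower and goes with the labels. Markers of other cell types also differed between the 2 genotypes. All 8 pluripotency markers had higher levels in A2 SMA MNs by at least 2-fold, and their sum was 273 FPKM in control against 1794 in A2 SMA MNs. Of 10 neuronal and MN markers with a level, 9 were lower by at least 2-fold, and their sum was 1187 FPKM in control against 170.0 in A2 SMA MNs. The gene of the reporter's promoter, Mnx1, named after its values were seen, was at 41.2 and 44.2 FPKM, whereas the MN factor Lhx3 (27.6 and 0.348 FPKM) and the acetylcholine enzyme Chat (15.5 and 0.344 FPKM) were near 0 in A2 SMA MNs. Of 6 fibroblast markers, 4 were lower by at least 2-fold and Thy1 was higher by that size, with sums of 61.7 and 32.0 FPKM. These marker differences ran alongside every chaperone value below, and their part in those values was not tested.

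Chaperone transcripts as a whole were neither broadly higher nor broadly lower in A2 SMA MNs. A level of at least 1 FPKM in either genotype and above 0 in both was reached by 75 of the 82 members, and of these 43 had a lower level and 32 a higher level in A2 SMA MNs. The median log2 ratio of A2 SMA over control was -0.14, with quartiles of -0.70 and 0.38. Over all 15784 symbols that reached the same level the median was -0.29, with quartiles of -0.89 and 0.19, and 65.9% of symbols had a lower level. Against that median gene, 34 members lay below and 41 above, so that the majority turns from lower to higher. A level at least 2-fold lower was found for 15 members, where 22.2% of all symbols were that much lower, and a level at least 2-fold higher for 4 members, where 6.78% of all symbols were. The 4 higher members were Hspa8, Dnajb13, Hspb1 and Dnajc21, and the 15 lower ones included none above 40.9 FPKM in either genotype. Both counts lie close to these backgrounds. Relative to the median gene the counts were 6 lower and 9 higher, where 16.5% and 10.3% of all symbols were. Among the 15 lower and 4 higher members, Cct6b, Hspa1l and Hspb3 reached 1 FPKM in control MNs alone, and Dnajb13 in A2 SMA MNs alone. With a filter of 5 FPKM in either genotype and no centering, 11 members were at least 2-fold lower and 3 higher.

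The members differed by abundance. Among the 18 members with a mean level of at least 100 FPKM, 13 had higher levels in A2 SMA MNs and 5 lower (Hspa5, Hsp90b1, Dnajb11, Cct4 and Dnajc7), with a median log2 ratio of 0.21. Of the 13 higher ones, 7 were subunits of the single complex CCT/TRiC and another was the pseudogene Cct3-ps1. The 1446 symbols of the same abundance had 641 higher and 805 lower and a median of -0.071. Of these 18 members only Hspa5 lay below the median gene, as did 486 of the 1446 symbols. At 10 to 100 FPKM, 20 of 32 members were lower, with a median of -0.22 against -0.27 for 8328 symbols. Under 10 FPKM, 18 of 25 members were lower, with a median of -0.54 against -0.42 for 6010 symbols. The plot of levels in both genotypes shows the abundant members at the top of the left panel and of each compartment in the right panel.

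**Figure D1:**
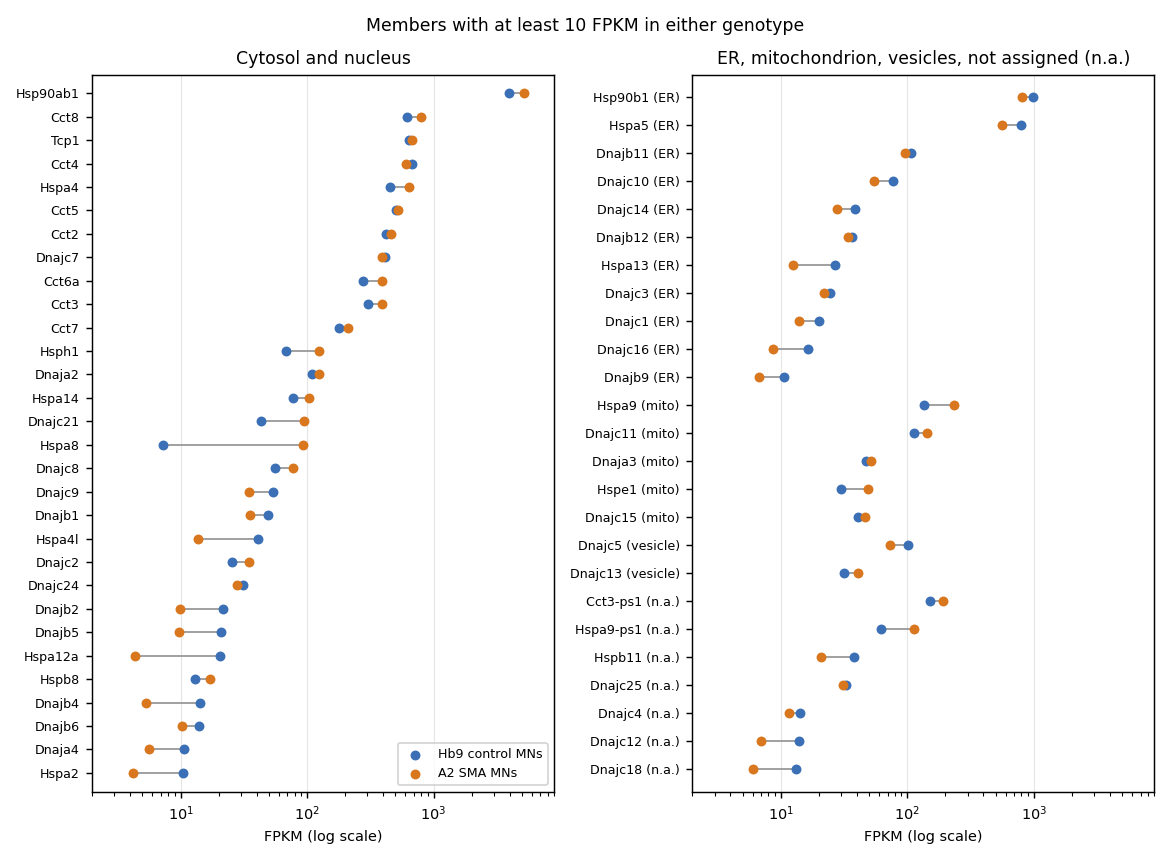
Transcript levels of the 55 members with at least 10 FPKM in either genotype, on a logarithmic FPKM axis, in Hb9 control MNs (blue) and A2 SMA MNs (orange), with 1 value per genotype and a gray line between them. The left panel holds members of the cytosol and nucleus, sorted by level. The right panel holds those of the ER, mitochondrion (mito), vesicles and those not assigned (n.a.), in this order and sorted by level within each. Hsp90ab1 (3966 and 5196 FPKM) has orange at the right, Cct4 (677 and 607 FPKM) has blue at the right, and the ER members shown all have blue at the right.

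By compartment as assigned here, the ER members were mostly lower and the mitochondrial members mostly higher in A2 SMA MNs. The 11 members that reached 1 FPKM without an assigned compartment, 8 of them lower, are not in these counts, and another assignment could change them. Of 13 ER members 12 had a lower level, with a median log2 ratio of -0.48, and their summed level was 2141 FPKM in control and 1655 in A2 SMA MNs. Of 8 mitochondrial members 6 had a higher level, with a median of 0.26 and a summed level of 381 FPKM in control and 541 in A2 SMA MNs. The 40 members of the cytosol and nucleus that reached 1 FPKM were evenly divided, 20 lower and 20 higher, with a median of -0.0040. Relative to the median gene, the ER median was -0.20 (8 members below, 5 above), the mitochondrial median 0.54 (2 below, 6 above) and the cytosolic median 0.28 (17 below, 23 above), so that the ER majority is small on that scale and the cytosolic one turns to higher.

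**Figure D2:**
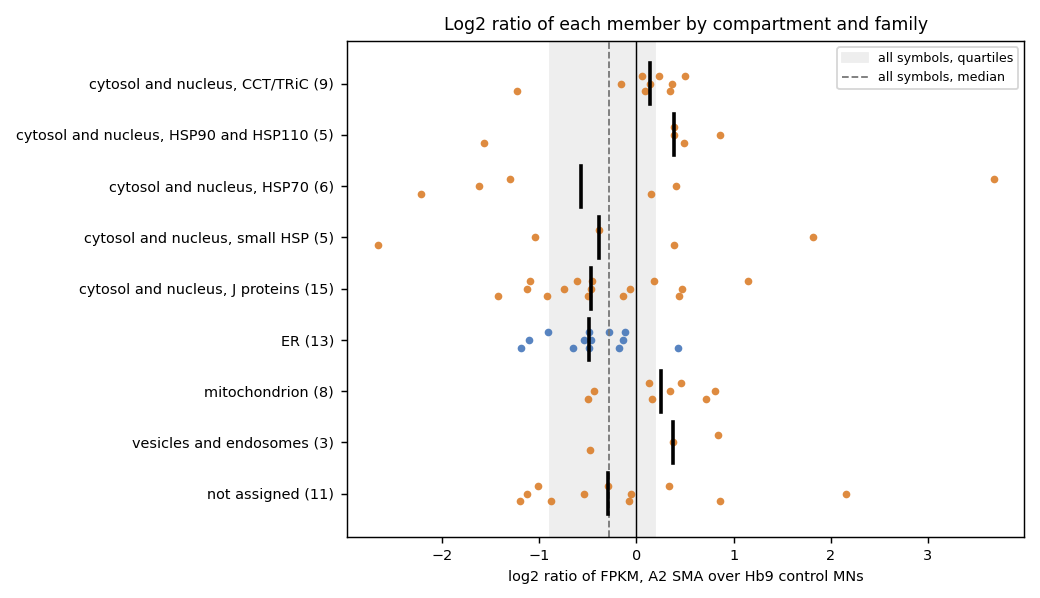
Log2 ratio of FPKM in A2 SMA over Hb9 control MNs for each of the 75 members that reached 1 FPKM, by compartment and, within the cytosol and nucleus, by family (number of members in parentheses). Points are genes (vertical offsets only separate them), black bars are group medians, the dashed line is the median of all symbols (-0.29) and the gray band their quartiles (-0.89 to 0.19). ER members (blue) lie left of 0 except for 1, and 6 of 8 mitochondrial members lie right of it.

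In the ER, the 3 chaperones that are not J proteins were all lower in A2 SMA MNs. Hsp90b1 (endoplasmin, the HSP90 of the ER) was listed at 986 FPKM in control and 809 in A2 SMA MNs (log2 ratio -0.28), a ratio about that of the median gene. Hspa5 (BiP, the HSP70 of the ER and the sensor partner of the unfolded protein response) was at 787 and 563 FPKM, a log2 ratio of -0.48. Hspa13, an HSP70 relative that lacks a substrate binding domain, was at 26.8 and 12.5 FPKM, a log2 ratio of -1.10. Of the 10 ER J proteins, 9 had a lower level and 1 a higher level. Dnajb11, which brings unfolded chains to BiP, was at 108 and 95.2 FPKM. Dnajc10, a J protein with thioredoxin domains that reduces disulfides, was at 76.8 and 54.9 FPKM. Both differences were small, with log2 ratios of -0.18 and -0.48. The membrane J protein Dnajb12 was at 36.6 and 33.8 FPKM, while its close relative Dnajb14 was at 7.05 and 3.10 FPKM, a log2 ratio of -1.19. Dnajc14 was listed at 38.4 and 27.8 FPKM and Dnajc3 (P58IPK, a BiP partner that is induced in the unfolded protein response) at 24.3 and 22.1 FPKM. Dnajc1, a ribosome-bound J protein, was at 20.2 and 13.9 FPKM, Dnajc16 at 16.3 and 8.67 FPKM and Dnajb9, a BiP partner that takes part in degradation of misfolded chains, at 10.5 and 6.69 FPKM. The exception was Dnajc22 at 2.97 and 3.98 FPKM, the lowest level of the 13 in control MNs. Cuffdiff gave the status FAIL, meaning that its own test could not be completed, to the rows of Hspa5, Dnajb11, Dnajb12 and Dnajc16.

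Other genes of ER folding showed the same side. Of 17 genes of ER folding and the unfolded protein response outside the families, 15 had lower levels in A2 SMA MNs, with a median log2 ratio of -0.33. Relative to the median gene this median was -0.049, with 11 below and 6 above. The disulfide isomerases P4hb and Pdia3 were at 629 and 407 FPKM and at 548 and 433 FPKM, and the lectin chaperone Canx at 627 and 530 FPKM. The 2 genes with a higher level were the stress-induced factor Atf4 (230.0 and 323 FPKM) and the ER protein Creld2 (58.9 and 63.8 FPKM), named after their values were seen. Ddit3 had the lowest log2 ratio of the 17, -0.985 (64.3 and 32.5 FPKM), and was also named after its value was seen.

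Promoters of the ER members were read for the ER stress element (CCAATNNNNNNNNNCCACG, either strand), through which the unfolded protein response acts on BiP. The sequences are from RefSeq (build GRCm38.p6), which has windows of 250 bases before to 50 bases after the start of 66 of the 82 members. A match stood in 3 of the 66 members, Hspa5, Hsp90b1 and Dnajc3, and in 0.137% of 27025 genes. The stretches around the matches are shown because all 3 of these genes belong to the ER, with the matched bases in capitals and each read along the strand of its gene. Hspa5 is on the plus strand (chr2:34771985-34772083), Hsp90b1 on the minus strand with the distal match at chr10:86705598-86705694 and the proximal one at chr10:86705493-86705591, and Dnajc3 on the plus strand (chr14:118937787-118937885).
Hspa5: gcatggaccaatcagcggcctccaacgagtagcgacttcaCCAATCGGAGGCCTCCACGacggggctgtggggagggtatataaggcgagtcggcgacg
Hsp90b1 distal: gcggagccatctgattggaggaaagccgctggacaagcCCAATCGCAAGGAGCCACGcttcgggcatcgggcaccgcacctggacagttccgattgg
Hsp90b1 proximal: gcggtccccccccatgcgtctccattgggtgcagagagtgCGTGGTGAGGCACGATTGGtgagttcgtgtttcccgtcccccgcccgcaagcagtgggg
Dnajc3: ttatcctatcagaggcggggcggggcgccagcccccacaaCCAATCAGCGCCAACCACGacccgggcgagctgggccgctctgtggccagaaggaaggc
The first matched base lies 65 bases before the start in Hspa5, 212 and 107 bases before it in Hsp90b1 and 105 bases before it in Dnajc3, and the proximal match of Hsp90b1 is on the opposite strand. The log2 ratios of these 3 genes were -0.48, -0.28 and -0.14, within the range of the other ER members. A match of letters is a description of the sequence, and binding was not measured.

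In the mitochondrion, the chaperones other than J proteins were all higher in A2 SMA MNs. Hspa9 (mortalin, the HSP70 of the matrix that draws chains through the import channel) was listed at 135 FPKM in control and 236 in A2 SMA MNs (log2 ratio 0.81). Hspe1 (HSP10, the lid of the mitochondrial chaperonin) was at 29.8 and 49.0 FPKM, and Hspd1 (HSP60, its barrel) at 4.93 and 6.77 FPKM, with log2 ratios of 0.71 and 0.46. Of 5 mitochondrial J proteins 3 had a higher level and 2 a lower one. Dnajc11, of the inner membrane organizing complex, was at 112 and 143 FPKM, Dnaja3 (Tid1, the J protein of mortalin) at 47.4 and 52.0 FPKM and Dnajc15 at 41.1 and 46.1 FPKM. The lower ones were Dnajc19, of the import motor, at 4.44 and 3.15 FPKM and Dnajc30 at 6.18 and 4.56 FPKM. Outside the families, 4 of 6 genes of mitochondrial quality control had higher levels, with a median log2 ratio of 0.20, among them Trap1 (the HSP90 of mitochondria) at 111 and 143 FPKM, the protease Lonp1 at 81.7 and 92.6 FPKM and the protease subunit Clpp at 43.9 and 56.2 FPKM. The 2 lower ones still lay above the median gene.

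The heat shock element, the site of heat shock factors, consists of GAA and TTC units that alternate with 2 bases between them. A run of at least 3 such units stood in the promoter windows of 4 members, Hspd1, Hspe1, Hsph1 and Dnajb6, and in 0.662% of 27025 genes. Pairs of units were more frequent: GAANNTTC stood in 15 of 66 members and 9.04% of genes, and TTCNNGAA in 8 of 66 members and 9.6% of genes. Both pairs are part of every run of 3, and both read the same on either strand. Hspd1 and Hspe1 are neighbors transcribed in opposite directions, and their windows hold the same run. The stretch shared by Hspe1 and Hspd1 is printed along the plus strand, which is the strand of Hspe1 (GRCm38.p6, chr1:55088019-55088116), and that of Dnajb6 along its own plus strand (chr5:29735812-29735904), with the run in capitals, since Hspe1 and Hspd1 had higher levels in A2 SMA MNs and Dnajb6 a lower one.
Hspe1 and Hspd1: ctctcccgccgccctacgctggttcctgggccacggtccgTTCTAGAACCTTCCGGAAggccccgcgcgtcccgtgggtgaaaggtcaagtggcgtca
Dnajb6: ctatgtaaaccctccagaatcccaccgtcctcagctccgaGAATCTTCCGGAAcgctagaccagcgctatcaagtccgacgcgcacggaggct
The shared run holds 4 alternating units (TTC, GAA, TTC and GAA), covers 18 bases and starts 89 bases before the start of Hspe1. Of the 4 genes with such a run, Hspd1, Hspe1 and Hsph1 had higher levels and Dnajb6 (14.1 and 10.2 FPKM) a lower level in A2 SMA MNs. In Hsph1 the matches lie after the start and are not printed. The heat shock factors themselves were listed at 34.1 and 29.1 FPKM for Hsf1 and 38.9 and 32.6 FPKM for Hsf2, close to the median gene.

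In the cytosol and nucleus, 16 of 25 members that are not J proteins had a higher level in A2 SMA MNs and 11 of 15 J proteins a lower one. The median log2 ratios were 0.16 and -0.46. The J proteins' share of 73.3% lower is close to the 65.9% of all symbols. Relative to the median gene 17 of the 25 and 6 of the 15 lay above. The summed level of the members that are not J proteins was 8303 FPKM in control and 10280 in A2 SMA MNs, with Hsp90ab1 as the largest single part. The J proteins summed to 877 FPKM in both. Without the 7 rows of status FAIL the median over all cytosolic members was -0.39 in place of -0.0040.

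Hsp90ab1, the constitutive cytosolic HSP90, had the highest level of all 82 members, 3966 FPKM in control and 5196 in A2 SMA MNs (log2 ratio 0.39). Its row covers chr17:45704724-45710252 in NCBI m37. Hsp90aa1, the stress-inducible form, was listed at 7.54 and 9.87 FPKM, which gives the same log2 ratio, 0.39, at a far lower level. Of 10 HSP90 co-chaperones 7 had a higher level and 3 a lower level in A2 SMA MNs, with a median log2 ratio of 0.31, and 9 of 10 lay above the median gene. The immunophilin Fkbp4 was at 423 and 647 FPKM, Stip1, which joins HSP70 to HSP90, at 178 and 232 FPKM, and the kinase co-chaperone Cdc37 at 227 and 218 FPKM.

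CCT/TRiC, the chamber that folds actin and tubulin, was higher in 7 of 9 members that reached 1 FPKM, with a median log2 ratio of 0.14 and summed levels of 3621 FPKM in control and 4060 in A2 SMA MNs. Cct6a was at 277 and 393 FPKM (log2 ratio 0.50), Cct3 at 305 and 392 FPKM (0.36) and Cct8 at 622 and 792 FPKM (0.35). Cct7 was at 179 and 210.3 FPKM, Cct2 at 419 and 462 FPKM, Tcp1 at 638 and 681 FPKM and Cct5 at 503 and 522 FPKM. Cct4 at 677 and 607 FPKM was the only subunit of the general complex with a lower level, a log2 ratio of -0.16, which lies above the median gene. The 8 subunits of the general complex therefore lay between -0.16 and 0.50, a narrow range. The rows of Cct4, Cct6a and Cct8 had the status FAIL. Cct6b, the form of the sixth subunit known from testis, was at 1.05 and 0.447 FPKM (-1.23, or -0.50 with a pseudocount of 1 FPKM). Of 7 prefoldin subunits and CCT cofactors with a level, which hand actin and tubulin to the chamber, 6 were higher, with a median of 0.042, and the most abundant were Pfdn2 at 169 and 183 FPKM, Pfdn5 at 149 and 115 FPKM and Pfdn1 at 94.7 and 113 FPKM.

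HSP110 proteins, the exchange factors of HSP70, differed among themselves. Hspa4 was listed at 454 and 639 FPKM and Hsph1 at 68.8 and 125 FPKM, with log2 ratios of 0.49 and 0.86 (both of status FAIL). Hspa4l was at 40.9 FPKM in control and 13.8 in A2 SMA MNs (log2 ratio -1.57), so that it was lower by at least 2-fold where its relatives were higher.

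Among the cytosolic HSP70 proteins the largest ratio of all members was found. Hspa8 (HSC70, the constitutive HSP70, which also strips clathrin from vesicles) was listed at 7.27 FPKM in control and 92.9 in A2 SMA MNs, 12.8-fold higher, a log2 ratio of 3.68. Its row (NCBI m37 chr9:40609067-40613283) also names Snord14c, Snord14d and Snord14e, small nucleolar RNA genes, and 39.4% of its 50-base sequences occur in other genes, 12 of them pseudogenes. The part of these genes in the value was not tested. Hspa14, which works with Dnajc2 at the ribosome, was at 77.3 and 103 FPKM, a log2 ratio of 0.41. Hspa12a, an HSP70 relative of the brain, was at 20.3 and 4.37 FPKM, a log2 ratio of -2.22, and Hspa2, known from germ cells, at 10.4 and 4.23 FPKM (-1.30). Hspa12b was at 1.39 and 1.55 FPKM and Hspa1l at 1.32 and 0.429 FPKM (-1.62, or -0.70 with a pseudocount of 1 FPKM). The stress-inducible pair Hspa1a and Hspa1b was listed at under 1 FPKM in both genotypes (0.261 and 0.219 FPKM, and 0.477 and 0.553 FPKM). These genes share 66.3% and 62.3% of their 50-base sequences with other genes, mostly with each other, and the part of this in their levels was not tested. Of 11 factors that exchange nucleotides on HSP70 or partner it, 4 had a higher and 7 a lower level, with a median of -0.19. This share of 63.6% lower is near the 65.9% of all symbols, and relative to the median gene 5 lay below and 6 above. The most abundant were St13 at 297 and 354 FPKM, Bag6 at 329 and 258 FPKM and Bag1 at 102 and 89.2 FPKM.

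**Figure D3:**
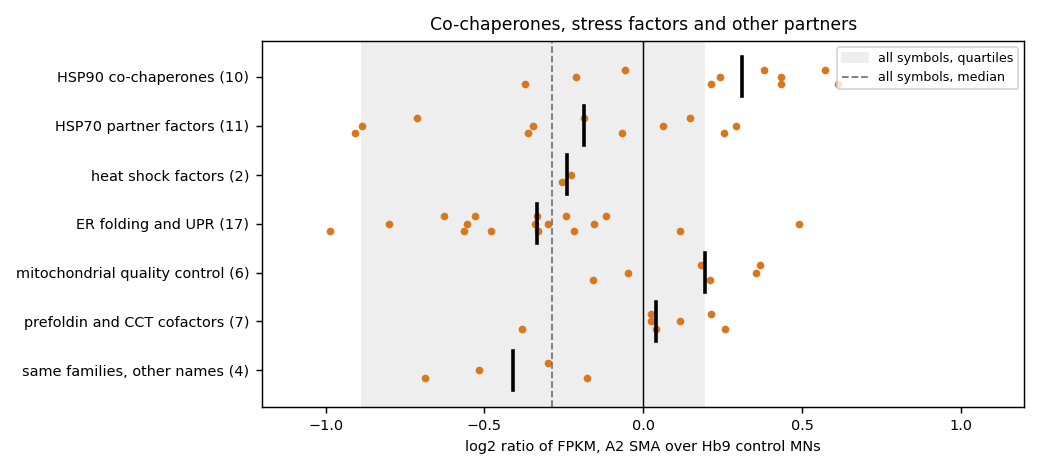
Log2 ratio of FPKM in A2 SMA over Hb9 control MNs for genes that work with the chaperones, by list (number of genes with at least 1 FPKM in parentheses), with medians as black bars, the median of all symbols (-0.29) as a dashed line and their quartiles as a gray band. HSP90 co-chaperones have a median of 0.31 and ER folding genes one of -0.33, and no gene of these lists reached a log2 ratio of 1 in either direction (UPR, unfolded protein response).

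The J proteins of the cytosol and nucleus were led by Dnajc7, a partner of HSP70 and HSP90, at 412 and 395 FPKM and Dnaja2, a general partner of HSP70, at 109 and 124 FPKM. Both log2 ratios, -0.062 and 0.18, were small. Dnajb1 (HSP40, the J protein of stress disaggregation) was at 49.0 and 35.7 FPKM, a log2 ratio of -0.45. The DNAJB branch was lower in 10 of 11 members that reached 1 FPKM over all compartments, with a median of -0.54, and 8 of the 11 lay below the median gene. Dnajb2 (HSJ1, a J protein of neurons) was at 21.6 and 9.86 FPKM, Dnajb5 at 20.9 and 9.80 FPKM and Dnajb4 at 14.3 and 5.33 FPKM, with log2 ratios of -1.13, -1.09 and -1.43. In the DNAJA branch Dnaja4 was at 10.6 and 5.61 FPKM and Dnaja1 at 9.98 and 5.94 FPKM.

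The other J proteins of the cytosol and nucleus had levels on both sides. Dnajc21, which takes part in maturation of the large ribosomal subunit, was at 43.0 FPKM in control and 95.4 in A2 SMA MNs (log2 ratio 1.15), and was the only cytosolic J protein past 2-fold on the higher side. Dnajc2, which binds at the ribosome exit tunnel, was at 25.5 and 34.6 FPKM (0.44), and Dnajc8, of the spliceosome, at 55.5 and 77.0 FPKM (0.47). Dnajc9, a histone chaperone, was at 53.5 and 35.0 FPKM (-0.61). Dnajc24, of diphthamide synthesis, was at 31.0 and 28.2 FPKM, and Dnajc17, a nuclear splicing factor, at 6.57 and 4.65 FPKM.

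In vesicles and endosomes, Dnajc5 (cysteine string protein, a chaperone of synaptic vesicles) was listed at 101 and 72.7 FPKM, a log2 ratio of -0.47. It has a second row at 8.74 and 4.86 FPKM, on the same side. Dnajc13, of endosome sorting, was at 31.6 and 41.1 FPKM, and Dnajc6 (auxilin, the neuronal J protein that recruits HSC70 to clathrin) at 3.93 and 7.03 FPKM, with log2 ratios of 0.38 and 0.84.

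Of the 6 small heat shock proteins that reached 1 FPKM, 4 were lower in A2 SMA MNs, with a median log2 ratio of -0.63, a share close to the 65.9% of all symbols. Relative to the median gene 4 lay below and 2 above. Hspb1 (HSP25) was at 2.18 FPKM in control and 7.68 in A2 SMA MNs (log2 ratio 1.82). Hspb8, which acts with Bag3 in disposal of aggregates, was at 13.0 and 17.0 FPKM. Hspb3 had the lowest log2 ratio of the 75 members that reached 1 FPKM, -2.66, from 1.75 and 0.276 FPKM. It reached that level in control MNs alone, and with a pseudocount of 1 FPKM its log2 ratio was -1.11, no longer the lowest. The remaining ones were Hspb11 (IFT25, a protein of cilia transport) at 38.2 and 20.8 FPKM, Hspb6 at 5.99 and 2.92 FPKM and Hspb2 at 1.80 and 1.38 FPKM.

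Of 11 members with no compartment assigned that reached 1 FPKM, 8 had a lower level, a share of 72.7% near the 65.9% of all symbols, and relative to the median gene 6 lay below and 5 above. The 3 higher ones were Dnajb13 and the pseudogenes Cct3-ps1 and Hspa9-ps1. Dnajb13, known from the axoneme of cilia and sperm tails, was at 0.901 and 4.03 FPKM, a log2 ratio of 2.16. It reached 1 FPKM in A2 SMA MNs alone, and with a pseudocount of 1 FPKM its log2 ratio was 1.40. Dnajc12 (14.0 and 6.94 FPKM), Dnajc18 (13.2 and 6.02 FPKM) and Dnajc28 (3.95 and 1.72 FPKM) were lower by at least 2-fold. Smaller log2 ratios were found for Dnajc25 (32.8 and 31.1 FPKM), Dnajc4 (14.3 and 11.7 FPKM), Dnajc27 (9.40 and 9.03 FPKM) and Dnajb3 (5.70 and 3.93 FPKM), whose row spans a locus far longer than the gene. The 7 members that did not reach 1 FPKM were Hspa1a, Hspa1b, Hspb7, Hspb9, Dnajb7, Dnajb8 and Cct8l1, and no member was listed at 0. Of 5 chaperones of the same families under other names, the 4 that reached 1 FPKM were lower, with a median of -0.41, the most abundant being Gak (66.6 and 58.9 FPKM), Sec63 (60.2 and 37.4 FPKM) and Cryab (6.92 and 5.62 FPKM).

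Several chaperone genes have copies that a short read cannot always tell apart. In the GENCODE M21 transcripts, 14 members share at least 20% of their 50-base sequences with another gene, among them Hspb1 (50.1%), Hsp90aa1 (47.5%), Hspd1 (42.1%), Hspa8 (39.4%) and Dnaja1 (20.6%). Hsp90aa1, Hspd1, Hspa8 and Dnaja1, which are known as abundant in most cells, were listed at under 10 FPKM in control MNs, and the part of the shared sequences in their levels was not tested. The level of Hspb1 was below that of its processed pseudogene Hsp25-ps1, at 27.3 FPKM in control and 86.6 in A2 SMA MNs. The log2 ratios were 1.82 for Hspb1, 1.67 for the pseudogene and 1.68 for their sum of 29.5 and 94.3 FPKM. Hspa9-ps1 at 62.4 and 114 FPKM and Cct3-ps1 at 152 and 193 FPKM, both members by name, had log2 ratios of 0.86 and 0.34 beside 0.81 for Hspa9 and 0.36 for Cct3. The row of Hspa9-ps1 spans a locus far longer than the gene. These pseudogenes share 2.81% and 0.419% of the 50-base sequences of their parent genes. For Hspa8, the pseudogene Gm15459 was at 0.217 and 2.02 FPKM, a log2 ratio of 3.22 beside 3.68. Each of these copies thus lay on the same side as its parent gene.

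**Figure D4:**
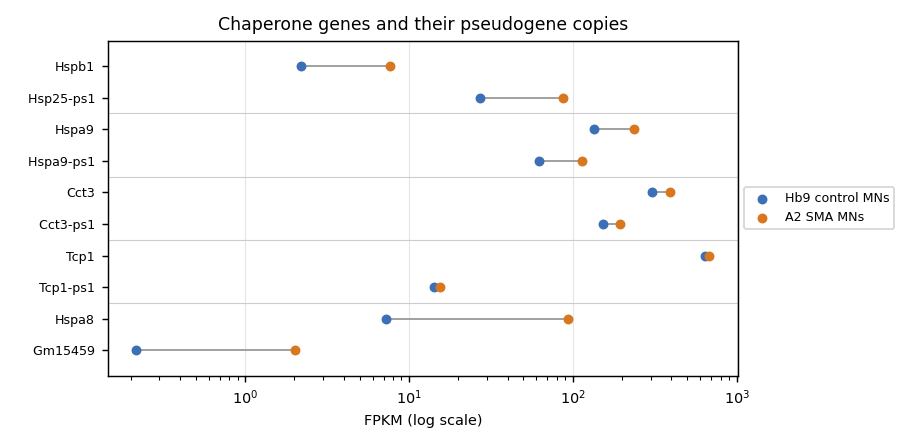
FPKM on a logarithmic axis of 5 chaperone genes and, under each, a pseudogene copy, in Hb9 control MNs (blue) and A2 SMA MNs (orange), with 1 value per genotype. Hsp25-ps1 (27.3 and 86.6 FPKM) lies above its parent gene Hspb1 (2.18 and 7.68 FPKM), and in all 5 pairs gene and copy have orange at the right.

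Overlap with neighboring genes touched other values. Dnaja4 shares 42.7% of its 50-base sequences with Wdr61 (102 and 95.9 FPKM), Dnajb13 shares 9.22% with Ucp2 (117 and 211 FPKM), and Hspa1l shares 71.4% with other genes, mostly the antisense gene Gm10501. The TruSeq RNA kit named in the labels does not mark strand, so that reads from the shared stretches cannot be told apart, and their part in these levels was not tested. The rows of 7 members name another gene as well (Hsp90b1, Tcp1, Cct6a, Dnaja1, Dnaja3, Dnajc25 and Hspa8). Of the 82 members 63 had the status OK, 15 FAIL and 4 NOTEST.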

How the data were processed

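RNA from FACS-purified MNs was sequenced in 6 samples, 3 per genotype. According to the submitters' notes and the study's methods, the authors checked reads with FastQC 0.10.1, trimmed them with cutadapt, mapped them with TopHat2 2.04 to NCBI m37 with its Ensembl annotation, and assembled and compared transcripts with Cufflinks and Cuffdiff. The authors deposited 1 gene table of 41945 entries with 1 FPKM value per genotype, which combines its 3 samples. Its columns of fold changes, test statistics, p-values and q-values hold the authors' own comparison and were not used. The table does not give the reads behind a value.

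The table was handled in Python 3.11.15 (numpy 2.4.6, pandas 2.3.3, matplotlib 3.10.9). Entries were split at commas into symbols, and per symbol the one with the highest FPKM was taken. Log2 ratios had no pseudocount and required a level above 0 in both genotypes and of at least 1 FPKM in one of them. A 2-fold difference counted as a call. The procedure was tested on simulated data. Members and lists were chosen with earlier results of these data known, and compartments and families were assigned from general knowledge. Every member could be named, and values were given in full for members with at least 10 FPKM and for the 5 highest and 5 lowest ratios. Of other lists at most the 3 most abundant genes and those past 2-fold were named, with Atf4, Creld2, Ddit3 and Mnx1 named in addition after their values were seen. Alternatives concerned the pseudocount, filter, entry per symbol, status, scaling and shared sequences. Protein sequences were not analysed here.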

Additional observations from a re-analysis of the deposited data

How the results depend on the processing

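The levels rest on 1 value per genotype, so that leaving out a sample could not be run, and the table does not give the reads behind a single low value. No paired analysis was possible because the table gives 1 value per genotype. Of 102 comparisons of group medians and counts with an alternative, 25 moved (a median by at least 0.1 on the log2 scale, a count by over 1.5 times). The cause was not tested beyond what the construction of an alternative gives.

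Centering on the median gene and scaling to the upper quartile shift all ratios upwards. The median of all symbols was then 0.00 and 0.11, that of the members 0.14 and 0.26, of the ER -0.20 and -0.086, of the cytosol and nucleus 0.28 and 0.39, of the mitochondrion 0.54 and 0.66 and of CCT/TRiC 0.43 and 0.54. Members at least 2-fold lower were 6 and 5 in place of 15, and those at least 2-fold higher 9 and 9 in place of 4. A pseudocount of 1 FPKM left 9 members at least 2-fold lower, and a threshold of 1.5-fold gave 9 higher. Without the status FAIL the medians were -0.29 for the members, -0.39 for the cytosol and nucleus and 0.40 for the mitochondrion. Chosen after seeing the data were a filter of 10 FPKM, with 9 members 2-fold lower, 2 higher and a cytosolic median of 0.12, and leaving out members that share 50-base sequences, with 2 higher. Leaving these out gave a mitochondrial median of 0.17 in place of 0.26.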
